A study of Homo sapiens with 9 samples.

Results

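The genes described here are 44 markers of monocyte and granulocyte maturation: integrins, Fc receptors and their adaptors, inhibitory receptors, NADPH oxidase subunits, Toll-like and chemoattractant receptors, S100 proteins and other products of maturing myeloid cells, leaving out transcription factors, granule proteases and genes with a CD-numbered symbol. They were taken by gene symbol from the authors' deposited table of comparisons. Of the 44 genes, 31 have a row among the 13410 genes of the table. The other 13 (C5AR1, CCR1, CLEC7A, CYBB, FCGR1A, FCN1, FGL2, FPR1, NCF1, S100A12, SIRPB1, TLR8 and VCAN) are not analysed here.

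The cells were MV4-11, a human leukaemia line of the monocytic lineage that carries a KMT2A fusion and an internal tandem duplication of the receptor kinase FLT3. They were kept for 18 h in the vehicle DMSO, in 100 nM JB170 or in 1000 nM alisertib, with 3 libraries in each group and 9 in all. Alisertib inhibits the mitotic kinase Aurora A, and JB170 is a degrader of Aurora A that joins alisertib to a ligand of the ubiquitin ligase receptor cereblon. MV4-11 is 1 cell line. Nothing in the labels ties the 3 libraries of a group to separate cultures, and the p-values may then reflect no more than technical spread. The table holds 4 comparisons with DMSO. Column A1000 was taken to be alisertib because 1000 nM is its labelled dose. No labelled group matches A100 or MK, and both are given by header only.

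Every value is a log2 fold change, treated minus DMSO, from the authors' deposited table, with the authors' adjusted p-value, and a gene is called where that p is under 0.05. The header order did not fix the sign of the columns, and the direction used here was inferred from the values. If the JB170 column ran the other way, each JB170 sign below would turn, and if all columns did, every sign would. The depth is unknown, as no values per library were used. The error given is an approximate standard error (SE) implied by each log2 fold change and its p-value. Where the z of that p-value was under 1, the median SE of genes at a like level stands in for it. The implied SE covers the spread between libraries as the authors' test saw it. In bulk RNA, fewer cells of a type and less RNA per cell cannot be told apart.

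Monocytes and neutrophils acquire many of these genes late in differentiation, but not all of the genes are confined to that stage or to these cells. Beta2 integrins pair a shared beta chain with a variable alpha chain for adhesion and for uptake of complement-coated particles. The adaptors FCER1G and TYROBP lend an activating tyrosine motif to receptors that have none, while LILRB and SIRP alpha receptors carry inhibitory motifs. Acute myeloid leukaemia cells are halted before this stage, and monocytic leukaemias express part of the programme.

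Identity genes of a myeloid line were present. FLT3 stood at a mean of 9.88 log2 CPM (reads scaled to library size), the myeloid factor SPI1 at 8.26, the surface antigen CD33 at 5.97 and the homeobox gene MEIS1 at 5.76 in the authors' deposited table, while the homeobox gene HOXA9 stood at 1.41 and CEBPA is not analysed here. CD14, a defining monocyte antigen, stood at 0.62 log2 CPM. Of the lymphoid markers 5 of 10 had a row, of the erythroid and megakaryocytic markers 3 of 10, and of the stromal or epithelial markers 3 of 6. None of these 11 genes was called with alisertib or with JB170, and their part in the results below was not tested. The erythropoietin receptor gene EPOR had a mean of 4.27 and the lymphoid granule gene NKG7 of 4.26 log2 CPM in the authors' deposited table.

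Reference promoters are shown for 4 of the genes that moved with alisertib. Of these, 3 hold GAGGAA, searched for here as the purine-rich PU box to which the myeloid factor PU.1 (SPI1) binds. The gene that rose most does not hold these exact letters. Each sequence is the RefSeq window from 250 bases before to 50 bases after a transcript start (GRCh38.p14), 5′ to 3′ on the gene's strand, with GAGGAA on either strand in capitals. TYROBP lies on the minus strand (chr19:35908246-35908545), GRN on the plus strand (chr17:44345052-44345351), MNDA on the plus strand (chr1:158831101-158831400) and ANPEP on the minus strand (chr15:89814803-89815102, the upstream one of its starts in the RefSeq table).
TYROBP: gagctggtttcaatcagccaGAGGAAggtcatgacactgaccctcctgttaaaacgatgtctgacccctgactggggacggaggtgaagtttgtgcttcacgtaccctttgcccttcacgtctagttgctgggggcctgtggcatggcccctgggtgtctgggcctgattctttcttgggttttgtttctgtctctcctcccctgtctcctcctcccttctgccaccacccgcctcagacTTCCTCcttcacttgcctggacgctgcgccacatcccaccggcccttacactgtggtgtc
GRN: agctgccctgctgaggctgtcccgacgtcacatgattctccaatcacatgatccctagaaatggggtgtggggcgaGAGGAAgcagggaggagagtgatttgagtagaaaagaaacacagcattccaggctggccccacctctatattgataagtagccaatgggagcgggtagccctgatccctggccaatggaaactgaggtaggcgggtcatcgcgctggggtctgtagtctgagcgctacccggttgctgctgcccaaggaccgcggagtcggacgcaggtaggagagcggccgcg
MNDA: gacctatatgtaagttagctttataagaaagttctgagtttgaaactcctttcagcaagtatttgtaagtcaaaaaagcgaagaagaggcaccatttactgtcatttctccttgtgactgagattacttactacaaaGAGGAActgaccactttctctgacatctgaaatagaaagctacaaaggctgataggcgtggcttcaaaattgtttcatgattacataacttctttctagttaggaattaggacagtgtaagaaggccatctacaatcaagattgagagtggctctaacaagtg
ANPEP: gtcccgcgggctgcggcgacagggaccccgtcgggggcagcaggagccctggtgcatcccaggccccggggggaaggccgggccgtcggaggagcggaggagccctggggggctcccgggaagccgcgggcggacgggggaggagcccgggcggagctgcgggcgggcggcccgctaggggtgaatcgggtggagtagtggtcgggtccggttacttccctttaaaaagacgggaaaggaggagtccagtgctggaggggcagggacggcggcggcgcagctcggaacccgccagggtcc

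TYROBP holds the box once on its own strand, with its leftmost base at position -230 from the start, and once on the other strand, at -10. GRN holds it at -174 and MNDA at -113. Neither ANPEP window holds these exact letters, and other forms of the site were not searched for. S100A8, not shown, holds GAGGAA on the other strand in some of its windows. Over all RefSeq genes with a window 31.8% (8687 of 27305) have GAGGAA on either strand in at least 1 window. Of the 24 maturation genes with a window, 16 have it (66.7%), and the genes not called with alisertib have it too (12 of 19). It was found in 3 of 4 genes that rose and in the 1 gene that fell for which a window was held. The letters TTGCNNAA, which resemble the site of C/EBP factors, were found on either strand in 5 of 24 maturation genes and in 12.7% of all genes. The motifs were chosen after the sequences were seen, genes differ in their number of windows, and a match is a description and not a bound site.

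With 1000 nM alisertib 7 of the 31 maturation genes were called, 4 higher and 3 lower. In the authors' deposited table, 5.92% of all genes with a row were called, 3.09% as higher and 2.83% as lower. The role groups below hold few genes each, and their counts stand against these shares. ANPEP, TYROBP, S100A8 and GRN rose, and ITGB2, ITGAL and MNDA fell. The median over the 31 genes was 0.11 on the log2 scale, against 0.01 over all genes, with 19 genes above 0 and 12 below. The list therefore held calls in both directions, and ANPEP alone was past a size of 1. At an unadjusted p under 0.05 there were 11 of 31 genes, against 17.6% of all genes. The same count was 5 of 31 in the column A100, against 11.6% of all genes, and 4 of 31 in MK, against 8.65%. With 100 nM JB170 none of the 31 genes was called, where 0.0298% of all genes were called in the authors' deposited table, and 1 gene (ANPEP) had an unadjusted p under 0.05, against 3.02% of all genes. The median with JB170 was 0.00.

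**Figure D1:**
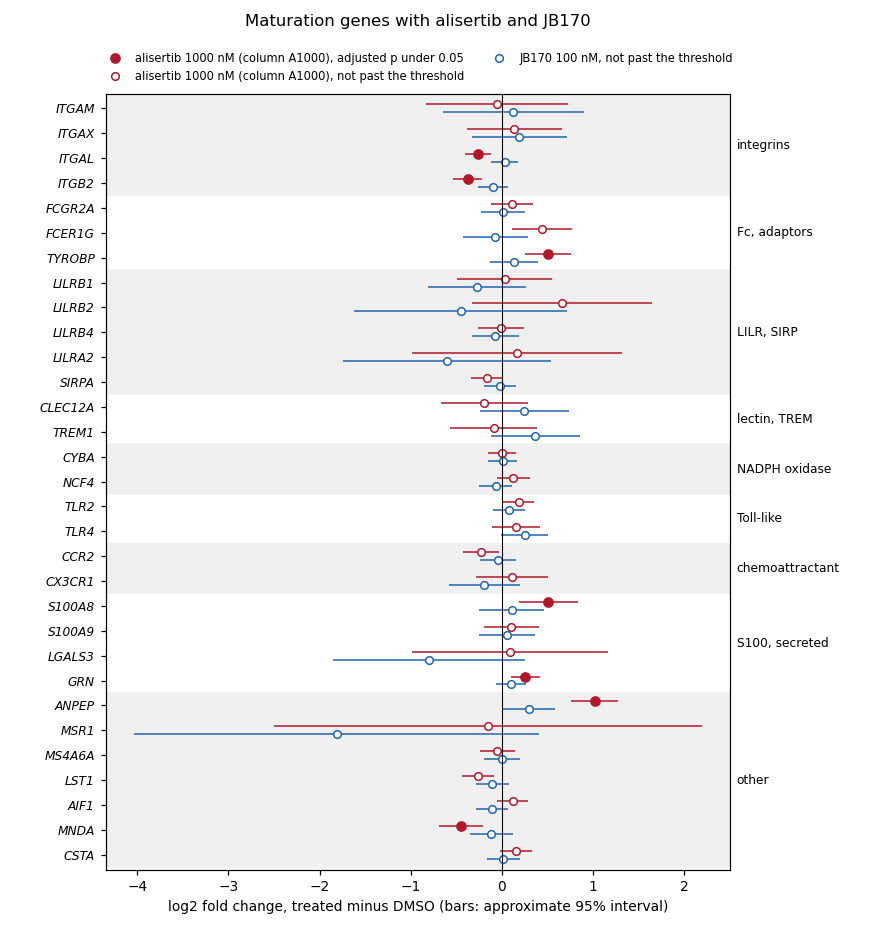
Log2 fold change (treated minus DMSO) of the 31 maturation genes with 1000 nM alisertib (red) and 100 nM JB170 (blue), in order of role, with approximate 95% intervals as bars and filled points for an adjusted p under 0.05. Alisertib gave 4 filled points to the right of 0 and 3 to the left, JB170 gave none, and the bars of low-level genes such as MSR1 are the widest.

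Of the 4 integrin genes 2 fell with alisertib and the other 2 were not called, while 2.83% of all genes were called lower. ITGB2, the shared beta2 chain (chromosome 21, 44885953 to 44931989, minus strand in GENCODE v29, GRCh38), fell by 0.37 with alisertib (SE 0.08, 95% interval -0.54 to -0.21, adjusted p = 0.000520 in the authors' deposited table), which is 0.772 times the DMSO level. ITGAL, the alpha chain of the lymphocyte function-associated antigen LFA-1 (chromosome 16, 30472658 to 30523185, plus strand), fell by 0.26 (SE 0.07, 95% interval -0.40 to -0.11, adjusted p = 0.0158 in the authors' deposited table). The transcripts of both LFA-1 chains were thus lower in alisertib, and protein was not analysed here. With JB170 the authors' deposited table gave ITGB2 at -0.10 and ITGAL at 0.03, in the column A100 at -0.06 and -0.02, and in the column MK at -0.16 and -0.24, none of them called. The other alpha chains were at low levels and had wide errors. ITGAM, the alpha chain of complement receptor Mac-1, stood at -0.05 (95% interval -0.84 to 0.73) and ITGAX, that of p150,95, at 0.14 (95% interval -0.38 to 0.66), neither past the threshold. Annotated antisense genes overlap ITGAL and ITGB2, and the sources used here do not say whether the counting used strand, so reads of the antisense RNAs may be included.

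Of the 3 Fc receptor and adaptor genes 1 rose with alisertib and none fell, while 3.09% of all genes were called higher. TYROBP, the adaptor also known as DAP12 (chromosome 19, 35904401 to 35908295, minus strand), rose by 0.51 with alisertib (SE 0.13, 95% interval 0.26 to 0.76, adjusted p = 0.00316 in the authors' deposited table), a 1.42-fold level. FCER1G, the gamma chain shared by Fc receptors, stood at 0.44 (SE 0.17, 95% interval 0.12 to 0.77, adjusted p = 0.104 in the authors' deposited table), outside the threshold. FCGR2A, a low-affinity IgG receptor that carries its own activating motif, stood at 0.11 (adjusted p = 0.771 in the authors' deposited table). With JB170 the respective values of TYROBP, FCER1G and FCGR2A were 0.13, -0.07 and 0.01 in the authors' deposited table. TYROBP had positive values in all 4 columns, at 0.21 in A100 and 0.30 in MK, and was called in that of alisertib only, which does not show that the columns differ. The JB170 sign was inferred in part from its correlation with the other columns, and all share DMSO. The shared sign of TYROBP is therefore partly built in. FCGR2A and the LILR genes have closely similar copies, between which reads can be split, so their values are uncertain.

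No inhibitory or paired receptor was called, while 5.92% of all genes were called with alisertib. SIRPA, the receptor for the "don't eat me" signal CD47, stood at -0.16 with alisertib (95% interval -0.33 to 0.02, adjusted p = 0.391 in the authors' deposited table) and had the smallest p of its group. LILRB4 stood at -0.01 (95% interval -0.26 to 0.25) and LILRB1 at 0.03 (-0.49 to 0.56). LILRB2 (0.66, interval -0.33 to 1.65) and LILRA2 (0.17, interval -0.99 to 1.33), an activating member of the family, had means near 1 log2 CPM in the authors' deposited table and intervals that reach past a size of 1. All 5 genes were below 0 with JB170, from -0.60 to -0.02, and none had an unadjusted p under 0.05. CLEC12A, an inhibitory lectin of myeloid cells, stood at -0.19 with alisertib (adjusted p = 0.891) and 0.25 with JB170, and TREM1, an amplifier of inflammation that signals through TYROBP, at -0.09 and 0.37, in the authors' deposited table. Neither was called.

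The NADPH oxidase and Toll-like receptor genes had values of at most 0.19 with alisertib, and none was called. CYBA, the p22phox chain of the membrane flavocytochrome, stood at 0.01 with alisertib (95% interval -0.15 to 0.16) and at 0.01 with JB170 (-0.15 to 0.17). NCF4, the cytosolic p40phox subunit, stood at 0.13 with alisertib (interval -0.05 to 0.31) and -0.07 with JB170 in the authors' deposited table. TLR2, the receptor for bacterial lipoproteins, stood at 0.19 with alisertib (p = 0.0326, adjusted p = 0.250 in the authors' deposited table). TLR4, the receptor for lipopolysaccharide, stood at 0.16 with alisertib (adjusted p = 0.663 in the authors' deposited table). TLR4 had its largest value in the column A100, at 0.40 (p = 0.00226, adjusted p = 0.109), and 0.25 with JB170 (p = 0.0535), in the authors' deposited table.

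Of the chemoattractant receptors, CCR2, the receptor for the monocyte chemokine CCL2, stood at -0.23 with alisertib (p = 0.0205, adjusted p = 0.191 in the authors' deposited table), and CX3CR1, the fractalkine receptor, at 0.11 (adjusted p = 0.907). CX3CR1 stood at -0.59 in the column MK (p = 0.0102, adjusted p = 0.351 in the authors' deposited table). None of these passed.

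S100A8 and GRN rose with alisertib among the S100 and secreted proteins, while 3.09% of all genes were called higher. S100A8, a chain of calprotectin (chromosome 1, 153390032 to 153391188, minus strand), rose by 0.51 with alisertib (SE 0.17, 95% interval 0.19 to 0.84, adjusted p = 0.0415 in the authors' deposited table). Its partner S100A9, 29004 bases away, stood at 0.11 (95% interval -0.20 to 0.41, adjusted p = 0.879 in the authors' deposited table), and the intervals of the pair overlap. GRN, which encodes the lysosomal and secreted protein progranulin (chromosome 17, 44345086 to 44353102, plus strand), rose by 0.26 (SE 0.08, 95% interval 0.10 to 0.42, adjusted p = 0.0370 in the authors' deposited table). GRN stood at 0.26 in A100 as well (p = 0.00228, adjusted p = 0.109), at 0.23 in MK and, with JB170, at 0.10, all in the authors' deposited table. LGALS3, the lectin galectin-3, had a mean of 1.16 log2 CPM, and its interval of -0.98 to 1.17 holds changes of either sign.

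ANPEP, the surface aminopeptidase known as CD13 (chromosome 15, 89784889 to 89815401, minus strand), had the largest change of the 31 genes with alisertib. It rose by 1.02 (SE 0.13, 95% interval 0.77 to 1.28, adjusted p = 5.18e-12 in the authors' deposited table), a 2.03-fold level. It was also the 1 maturation gene called in the column A100, where it rose by 0.56 (adjusted p = 0.0120) and 1.3% of all genes were called, and in the column MK, where it rose by 0.66 (adjusted p = 0.0352) and 0.47% of all genes were called, in the authors' deposited table. With JB170 it stood at 0.30 (95% interval 0.01 to 0.58, p = 0.0417, adjusted p = 1 in the authors' deposited table). All 4 columns share the DMSO libraries.

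MNDA, an interferon-inducible nuclear protein of maturing myeloid cells (chromosome 1, 158831317 to 158849506, plus strand), fell by 0.44 with alisertib (SE 0.12, 95% interval -0.69 to -0.20, adjusted p = 0.0114 in the authors' deposited table) and stood at -0.11 with JB170. LST1, a leukocyte transmembrane protein gene of the major histocompatibility region, stood at -0.26 with alisertib just outside the threshold (adjusted p = 0.0642), and at -0.28 in A100 (p = 0.00289, adjusted p = 0.120), in the authors' deposited table. AIF1, a calcium-binding macrophage protein encoded 26274 bases from LST1, stood at 0.12 (95% interval -0.05 to 0.29, adjusted p = 0.569 in the authors' deposited table). The membrane protein gene MS4A6A stood at -0.05, the protease inhibitor gene CSTA at 0.16 and the scavenger receptor gene MSR1 at -0.15 with alisertib, none past the threshold. MSR1 had a mean of 0.04 log2 CPM in the authors' deposited table and an interval from -2.50 to 2.20.

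**Figure D2:**
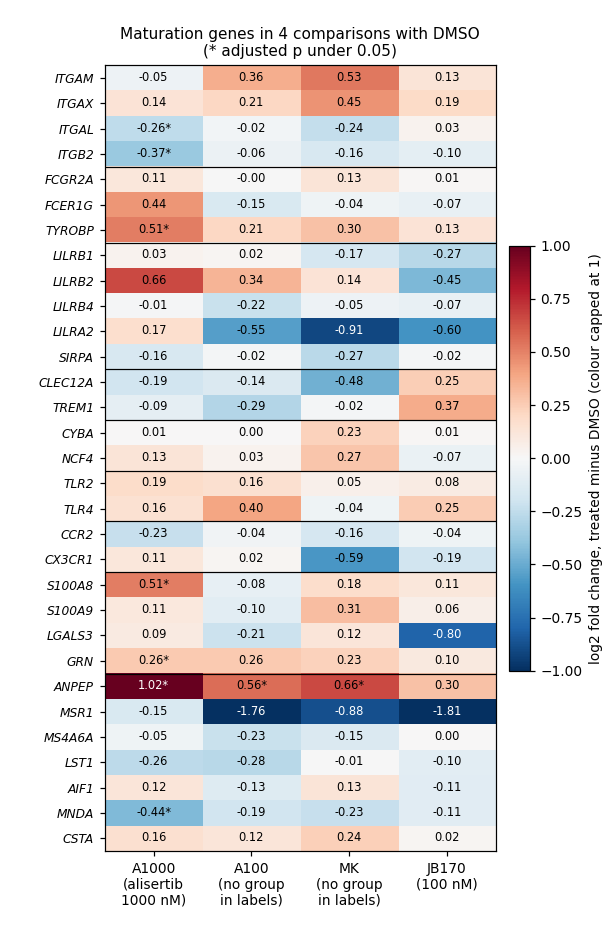
Log2 fold change of the 31 maturation genes (rows, in order of role) in the 4 comparisons with DMSO (columns), with red for higher and blue for lower in treated cells, the value printed in each cell and a star for an adjusted p under 0.05. ANPEP carries a star in A1000, A100 and MK (1.02, 0.56 and 0.66), and no gene has one with JB170.

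Errors were wider at low levels. The mean log2 CPM of the 31 genes ran from 0.04 to 9.12 in the authors' deposited table, and that of the 7 genes called with alisertib from 4.02 to 9.12. Of the 31 genes 24 stood at 3 log2 CPM or more, and all 7 calls were among these 24, where 7.95% of all genes at that level were called. Their SE with alisertib was 0.11 at the median and 0.24 at most, against a median of 0.50 and a maximum of 1.20 for the 7 genes under 3 log2 CPM. Most SEs of those 7 genes, with the 1.20 of MSR1, are medians of genes at a like level and not the gene's own. So is the 0.24 of CLEC12A and TREM1. For those 7 genes (ITGAM, ITGAX, LILRA2, LILRB1, LILRB2, LGALS3 and MSR1) most changes of the size seen elsewhere were not detectable with these errors. Divided by the length of all annotated exons in GENCODE v29, the mean level was highest for AIF1 (6.82 log2 CPM per kb), CYBA (6.62), CSTA (6.48) and ITGAL (6.43), and lowest for MSR1 (-2.93). TYROBP stood at 5.11, S100A8 at 4.01 and ANPEP at 2.43 on this per-length scale, which has no error per gene.

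**Figure D3:**
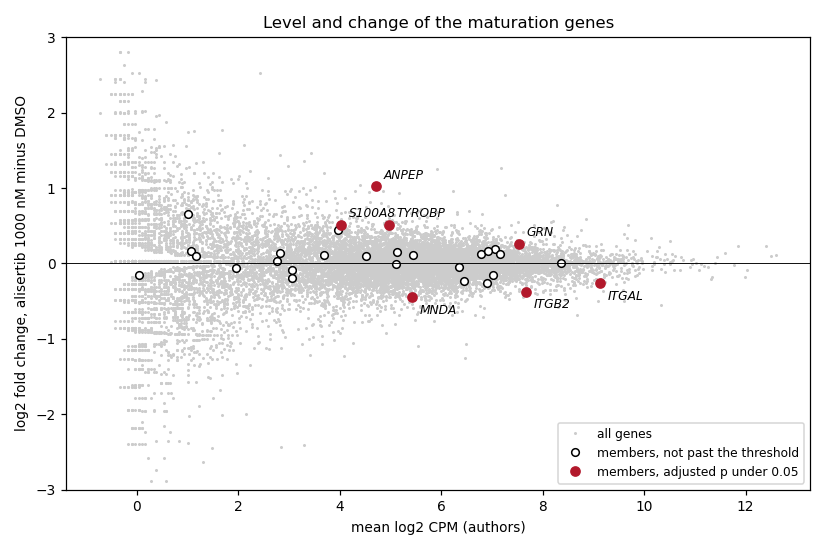
Mean log2 CPM of each gene (horizontal axis, authors' value) against its log2 fold change with 1000 nM alisertib (vertical axis, treated minus DMSO) for all genes (grey) and the 31 maturation genes (circles, red where the adjusted p is under 0.05). The 7 red points lie between 4.02 and 9.12 log2 CPM, and 28 genes beyond 3 in either direction are not drawn.

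The compounds were set against each other at the doses used, 100 nM JB170 and 1000 nM alisertib. These doses differ, so the comparison holds for these doses only. In an approximate test of the difference between the values of the authors' deposited table, adjusted by the Benjamini-Hochberg method over all genes, none of the 31 genes passed, while 0.283% of all genes did. At an unadjusted p under 0.05 there were 5 of the 31 genes, against 634 of all 13410 genes. ANPEP was nearest to the adjusted threshold, with a difference of 0.72 between the values of the authors' deposited table (95% interval 0.34 to 1.11, adjusted p = 0.0596). The DMSO libraries shared by both comparisons make this error too large. When they were taken off, 3 of the 31 genes passed on the values of the authors' deposited table, against 2.81% of all genes: ANPEP (interval 0.45 to 1.00), ITGAL (-0.29, interval -0.44 to -0.14, adjusted p = 0.00771) and ITGB2 (-0.28, interval -0.44 to -0.11, adjusted p = 0.0388). For TYROBP the difference was 0.37 (interval 0.01 to 0.74), for S100A8 0.40 (-0.08 to 0.88), for GRN 0.16 (-0.07 to 0.39) and for MNDA -0.33 (-0.67 to 0.01) in the first version, and none of them passed in either. If the JB170 column ran the other way, ANPEP, ITGB2, MNDA and TYROBP would pass with the shared libraries left in. The share of all genes that would pass in that setting was not computed, so this count has no background. With the direction used here, a difference between the compounds was not shown for TYROBP, S100A8, GRN and MNDA, nor that the compounds act alike. At the other end, the difference for CYBA was -0.01 (-0.23 to 0.21) and for TLR2 0.10 (-0.14 to 0.35).

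**Figure D4:**
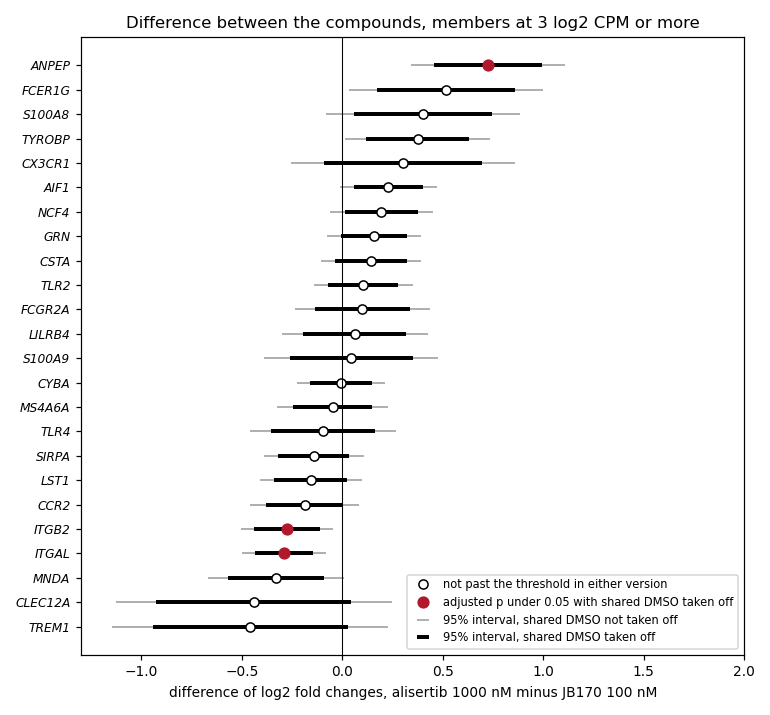
Difference of log2 fold changes, alisertib 1000 nM minus JB170 100 nM, for the 24 maturation genes at 3 log2 CPM or more, in order of size. Thin bars are 95% intervals with the shared DMSO libraries left in the error and thick bars with them taken off; the red points (ANPEP, ITGB2 and ITGAL) passed in the second version.

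Genes that work with the members also moved both ways with alisertib. Of 91 such genes on 9 lists, which cover partners of the integrins, signalling below the receptors, further receptors, oxidase parts, S100 proteins, granule genes and macrophage genes, 59 had a row. Of these 59, 7 rose, 7 fell and 45 did not pass, with a median of 0.08, where 3.09% of all genes were called higher and 2.83% lower. The lists below hold few genes each, and their counts stand against the same shares. With JB170 none of them was called and 1, CD68 at 0.31 (p = 0.00957 in the authors' deposited table), had an unadjusted p under 0.05, against 3.02% of all genes. The partners of the integrins (talin TLN1, kindlin-3 FERMT3 and others) held no call among 7 genes. In signalling below the adaptors and inhibitory receptors, 2 of 12 genes fell and none rose. These were PTPN6, the phosphatase recruited by inhibitory motifs (-0.29, adjusted p = 0.00843 in the authors' deposited table), and the SRC family kinase FGR. SYK, the kinase that binds the motifs of TYROBP and FCER1G, stood at -0.12 and was not past the threshold. TREM2, a receptor that signals through TYROBP, fell by 0.85 (adjusted p = 0.00101) while TYROBP rose, in the authors' deposited table.

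Below the Toll-like receptors MYD88, the shared adaptor, rose by 0.38 (adjusted p = 0.0143), while IRAK1, a kinase of that pathway, fell by 0.24 (adjusted p = 0.0340) and IRAK3, an inhibitor of it, fell by 0.31 (adjusted p = 0.0163), among 10 genes with a row in the authors' deposited table. Among 5 further chemoattractant receptors CXCR4 rose by 0.65 and LTB4R, a leukotriene receptor, fell by 0.63. CXCR4 was called in the columns A100 (0.51, adjusted p = 0.00168) and MK (0.59, adjusted p = 0.0268) too, and stood at 0.19 with JB170 (p = 0.108), in the authors' deposited table. In the authors' deposited table, S100A10 rose by 0.44 (adjusted p = 0.00753), 1 of 4 further S100 genes. Of 11 further monocyte and macrophage genes 4 rose and none fell. These were CSF1R (0.69), CD68 (0.68), the fatty acid receptor CD36 (0.48) and the lysosomal protease gene CTSS (0.34). In the column A100 of the authors' deposited table CSF1R (0.46, adjusted p = 0.0121) and CD68 (0.49, adjusted p = 0.00552) were called higher too, while CD36 and CTSS were not called. The 3 granule genes with a row held 1 call, a lower CHI3L1, and the 3 further oxidase parts held none. On the list of immature myeloid and identity genes 2 of 11 fell and none rose, the granule protease gene PRTN3 by 0.55 and its neighbour AZU1 by 0.28, in the authors' deposited table.

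**Figure D5:**
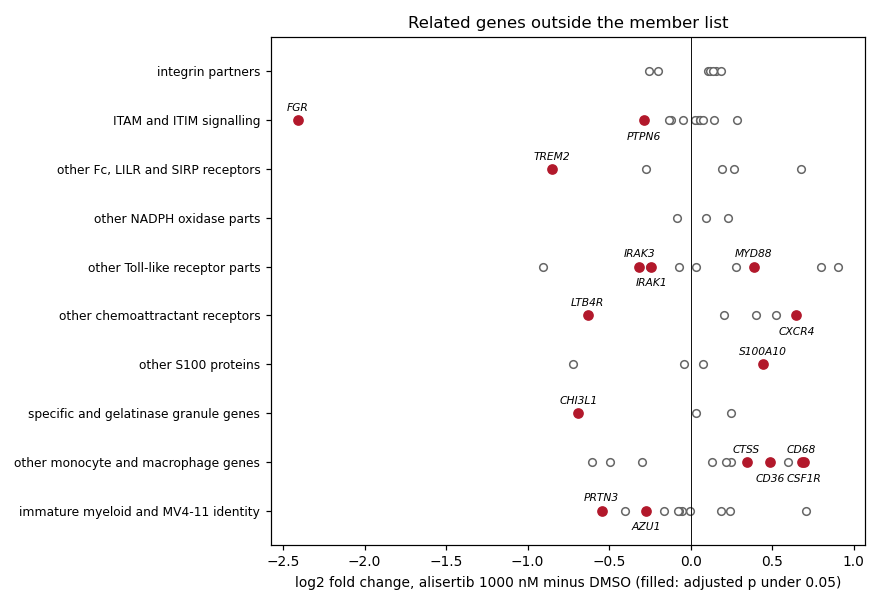
Log2 fold change with 1000 nM alisertib (horizontal axis, treated minus DMSO) of genes related to the maturation genes, one line per list, filled where the adjusted p is under 0.05. The filled points lie on both sides of 0, from FGR at -2.41 to CSF1R at 0.69.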

How the data were processed

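RNA of 9 libraries was prepared with poly(A) selection and directional library kits, per the labels' protocols, and the values analysed are those of the authors' deposited table. The submitters' processing notes list FastQC, TopHat2 2.1.1, Bowtie2 2.3.2 and hg19; how reads were counted, normalized and tested is not given in the sources used here. For each of 4 comparisons the authors deposited a log2 fold change with its p-value, raw and adjusted, per the file headers, and 1 mean log2 CPM without naming its libraries. Among the 13485 rows were 80 entries of 5 repeated identifiers, of which the first entry per identifier was kept, and 13410 genes remained. The adjusted p-values are as large as Benjamini-Hochberg adjustment over 16812 tests would make them, and tests without a row are not analysed here.

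Over all genes the JB170 column as deposited correlated with the columns A1000, A100 and MK at r = -0.49, -0.53 and -0.45, and the others with each other at 0.53, 0.51 and 0.49, although all share DMSO. The implied SE was larger where the value was positive in A1000 (log2 difference 0.40), A100 (0.30) and MK (0.23), as lower counts after treatment would give, and not in JB170 (0.01), over genes of 0 to 4 log2 CPM and a size of at least 1. The signs of A1000, A100 and MK were therefore turned, an inferred direction.

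No test against DMSO was computed. The SE is the size of the log2 fold change over the z of its p-value; where z was under 1, the median over 60 bins of mean log2 CPM was used. Differences between compounds were divided by the combined SE, with two-sided normal p-values adjusted over all genes. Tested on simulated data for alisertib minus JB170 over 13410 genes, this called 9.59% of genes changed by 0.5 and 98.6% of those changed by 1 with the shared DMSO left in, and 69.9% and 100% with it taken off, counting changed genes at 3 log2 CPM or more. Of 13210 unchanged genes at all levels it called 0 and 13. The simulation used a fixed depth and a fixed dispersion (spread between libraries beyond counting) and left JB170 unchanged. These settings were not fitted to the data, so the rates describe the simulated data only. Genes named in full are the called members and the member of smallest p in each role group. The members, role groups and lists were chosen with earlier results of these data known. Python 3.11.15, numpy 2.4.6, pandas 2.3.3 and SciPy 1.17.1 were used.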

Additional observations from a re-analysis of the deposited data

How the results depend on the processing

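No paired analysis was possible because the results come from the authors' table of comparisons, which holds no values per library; for the same reason no replicate was left out and no other count model was run. With alisertib the 7 called genes (4 higher, 3 lower) became 3 (2 higher, 1 lower) at an adjusted p under 0.01, losing GRN, ITGAL, MNDA and S100A8, 11 (5 lower) at an unadjusted p under 0.05, and 3 (0 lower) with a size of at least 0.5 required. With JB170 the 0 called genes became 1, higher, at an unadjusted p under 0.05. The 1 gene called in the columns A100 and MK, ANPEP, became 0 in both at an adjusted p under 0.01, and 5 (3 higher, 2 lower) and 4 (2 higher, 2 lower) at an unadjusted p under 0.05. With every column read as DMSO minus treatment, the order of the headers, the counts were the same, since the JB170 column alone turns and held no call. The mean in place of the median was -0.0892 with JB170, against 0.00, and -0.0585 in A100, against -0.02. For the difference between the compounds, the 0 genes became 3 with the shared DMSO libraries taken off, 4 (ANPEP, ITGB2, MNDA and TYROBP) with the JB170 column turned, 1 at an adjusted p under 0.1 and 1 over genes at 3 log2 CPM or more. The cause of these changes was not tested, apart from the smaller error or looser threshold that the settings themselves impose. No share over all genes was computed for the counts at an adjusted p under 0.01 or with a size of at least 0.5. For the difference, none was computed with the JB170 column turned, at an adjusted p under 0.1, or over genes at 3 log2 CPM or more. Those counts therefore have no background. Adjustment over the rows held here changed no call of the 12 genes named in full, in any of the 4 columns. The unknown depth limits all values, and genes under 3 log2 CPM most.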
